A study of Homo sapiens with 40 samples.

Results

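The genes described here supply cells with amino acids and attach them to tRNA. They are AARS1 and NARS1 (cytosolic aminoacyl-tRNA synthetases), SLC3A2 and SLC1A4 (amino acid transporters) and MTHFD2, ASNS and CTH (enzymes of one-carbon and amino acid metabolism). The 7 genes were taken, as array probes with a single gene symbol, from the 4604 genes that such probes named, and 9 of the 15246 probes belonged to them. They were picked because several stood higher with JAK inhibitor I, so the values of that experiment are a description without a test. The other 5 experiments were not a criterion of the choice. Earlier results of these data were known when it was made, so the tests of those experiments may not be independent of it.

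RNA of 2 established human cell lines, OCI-Ly10 and OCI-Ly3, was measured on 40 spotted 2-colour arrays as a log ratio of treated (Cy5) over control (Cy3) cells. The base of the logarithm is not stated, and every value is given as log2 on the assumption of base 2. Both lines come from diffuse large B cell lymphomas of the activated B cell type. JAK inhibitor I at 5 uM, a blocker of the kinases upstream of STAT3, was given to OCI-Ly10 for 3 and 6 h (4 arrays, against untreated cells; a vehicle is not stated). IL-10 at 50 ng/ml was given to OCI-Ly3 for 1 to 96 h (10 arrays) and IL-6 at 50 ng/ml to OCI-Ly10 for 0.5 to 24 h (8 arrays), each against untreated cells of that line. A doxycycline-inducible IkB super-repressor, an IkB alpha that cells cannot degrade and that therefore holds NF-kB inactive, was induced with doxycycline at 20 ng/ml in OCI-Ly3 for 1 to 6 h (9 arrays) and in OCI-Ly10 for 1.5 to 24 h (4 arrays). Both channels of those arrays held cells that carry the super-repressor, and doxycycline in cells without it was not measured here. A pool of siRNAs against STAT3 at 4 uM was brought into OCI-Ly10 by electroporation for 8, 24 and 48 h (5 arrays). Its controls were electroporated with no siRNA, so an effect of siRNA as such cannot be told apart from that of STAT3 loss.

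Of the arrays, 12.6% of all probe values were blank, and 8862 to 14947 probes had a value on an array. NARS1, SLC3A2 and CTH had a value on all 40 arrays, AARS1, SLC1A4 and MTHFD2 on 39 and ASNS on 38. A ratio holds no level, so these genes cannot be ranked by abundance, and defining markers of B cells can only be followed as shifts. Fewer cells of a kind and less RNA per cell cannot be told apart. The siRNA lowered its target, with STAT3 at log2 -1.59 ± 0.17 (SE) over the 4 arrays of 24 and 48 h. Whether replicates came from separate cultures is not stated, and the p-values reflect only the spread among these arrays.

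Aminoacyl-tRNA synthetases join each amino acid to its tRNA, transporters carry amino acids across the plasma membrane, and enzymes such as asparagine synthetase make them inside the cell. When amino acids run short or protein folding fails, kinases phosphorylate the translation factor eIF2, most translation slows, and the mRNA of the transcription factor ATF4 is translated more. ATF4 then binds C/EBP-ATF composite sites, with core letters TGATGNAA, in the promoters of many genes of amino acid supply.

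The promoter windows of these genes are shown because they hold the letters that ATF4 is known to bind. TGATGNAA, or TTNCATCA where the match lies on the other strand, was searched from 250 bases before to 50 bases after each gene's start in RefSeq sequence of GRCh38.p14. The letters were in a window of AARS1, NARS1, SLC3A2, SLC1A4 and ASNS, that is, in 5 of 11 windows of the 7 genes, and were not in those of MTHFD2 or CTH. Of all RefSeq genes with a window, 1217 of 27305 (4.46%) held a match, and of the genes on the array 135 of 3751 (3.6%). Counted by window, these were 1270 of 35116 (3.62%) and 144 of 5764 (2.5%). ATF4 is known to bind such sites at many genes of amino acid supply, so these shares are given without a test. Each line gives 30 bases as the gene reads, with the match in capitals.
AARS1, chr16:70289675-70289704, minus strand, match on the reverse strand: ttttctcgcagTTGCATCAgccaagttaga
NARS1, chr18:57621804-57621833, minus strand, match as the gene reads: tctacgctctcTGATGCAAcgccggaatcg
SLC3A2, chr11:62881719-62881748, plus strand, match on the reverse strand: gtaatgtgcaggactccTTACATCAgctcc
SLC1A4, chr2:64989381-64989410, plus strand, match on the reverse strand: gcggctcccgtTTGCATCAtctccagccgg
ASNS, chr7:97872458-97872487, minus strand, match as the gene reads: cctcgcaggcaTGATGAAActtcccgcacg
AARS1, NARS1 and SLC1A4 share the letters TGATGCAA on one strand or the other, while SLC3A2 and ASNS differ at the free base. The match began at base -187 of AARS1, -68 of ASNS and -7 of SLC1A4 before the start, and at base 15 of NARS1 and 38 of SLC3A2 after it.

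The ASNS match lies in a stretch known as the nutrient-sensing response element. The 250 bases upstream of ASNS and of AARS1 are given for context, because only in these genes does the match lie wholly before the start.
ASNS, chr7:97872409-97872658, minus strand: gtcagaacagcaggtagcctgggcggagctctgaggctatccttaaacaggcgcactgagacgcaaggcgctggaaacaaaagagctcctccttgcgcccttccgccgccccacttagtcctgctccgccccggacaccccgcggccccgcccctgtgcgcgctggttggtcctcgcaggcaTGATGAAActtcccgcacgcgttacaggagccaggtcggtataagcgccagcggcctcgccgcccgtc
AARS1, chr16:70289507-70289756, minus strand: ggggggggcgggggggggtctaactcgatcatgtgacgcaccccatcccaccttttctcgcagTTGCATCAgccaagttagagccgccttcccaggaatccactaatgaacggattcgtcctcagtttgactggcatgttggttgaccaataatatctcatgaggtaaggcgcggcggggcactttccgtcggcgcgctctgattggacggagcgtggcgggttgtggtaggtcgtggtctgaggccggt
A match is a run of letters and not a measured binding site. Among the other cytosolic synthetases on the array, GARS1, IARS1 and TARS1 held a match in a window (3 of 5 genes with a window). Of 4 mitochondrial synthetases YARS2 held one, and none of the 11 unfolded protein response genes did. A match was also held by 1 of 8 other transporters (SLC38A1) and 1 of 10 other enzymes (GOT1) with a window. Of 10 integrated stress response genes with a window, 1 held a match (ATF3).

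With JAK inhibitor I in OCI-Ly10, both synthetases, both transporters and MTHFD2 were above their controls on every array that measured them, ASNS was near the control level and CTH was below it. AARS1, alanyl-tRNA synthetase, had log2 ratios of 0.26 and 0.21 at 3 h and 1.42 on the 1 array with a value at 6 h. NARS1, asparaginyl-tRNA synthetase, had 0.42 and 0.42 at 3 h and 0.34 and 0.36 at 6 h. AARS1 thus stood far higher on 1 array than on the others, while NARS1 was nearly level over all 4, with a mean of 0.39 ± 0.04 (SD, n = 4).

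SLC3A2, the heavy chain that brings several amino acid exchangers to the cell surface, had 0.46 and 0.44 at 3 h and 1.40 and 0.42 at 6 h. SLC1A4, a carrier of small neutral amino acids such as alanine and serine, had 0.57 and 0.55 at 3 h and 1.00 and 0.33 at 6 h. For both transporters replicate 1 at 6 h was the highest array. MTHFD2, a mitochondrial enzyme of the folate pathway that supplies one-carbon units, had 0.60 and 0.41 at 3 h and 0.65 and 0.68 at 6 h, with no such high array. ASNS, asparagine synthetase, had -0.05 and 0.13 at 3 h and -0.25 and -0.12 at 6 h, values on both sides of 0. CTH, which makes cysteine from cystathionine, had -0.02 and -0.33 at 3 h and -0.24 and -0.52 at 6 h, below 0 on all 4 arrays.

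**Figure D1:**
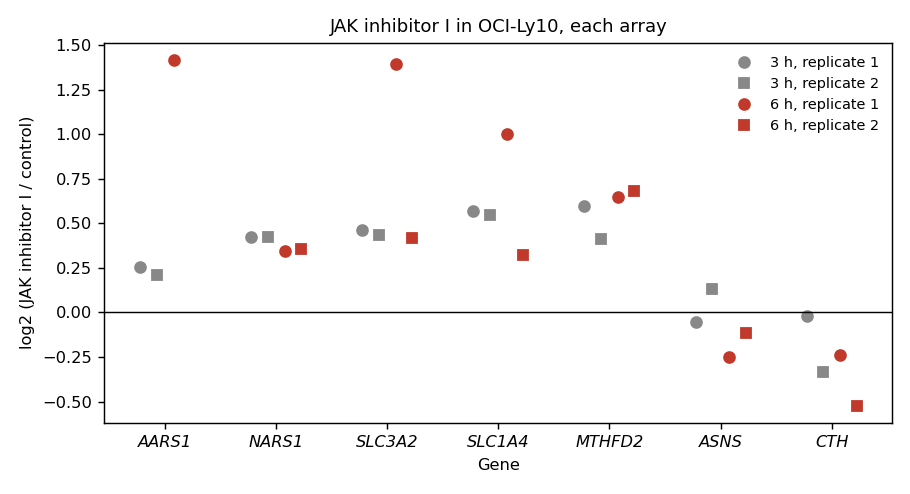
Log2 ratio of JAK inhibitor I over control in OCI-Ly10 (vertical axis) for each of the 7 genes, with 1 point for each array at 3 h and at 6 h. NARS1 and MTHFD2 lie close together over the arrays, replicate 1 at 6 h lies highest for AARS1, SLC3A2 and SLC1A4, and ASNS and CTH lie around and below 0.

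Without replicate 1 at 6 h the mean was 0.23 for AARS1 (0.63 with it), 0.44 for SLC3A2 (0.68 with it), 0.48 for SLC1A4 (0.61 with it) and 0.56 for MTHFD2 (0.59 with it). In all, 5 of the 7 genes were above 0 on every measured array, as were 14.9% of the 4480 genes with at least 3 values, and 1 was below 0 on every array, as were 16% of those genes. These counts are what the choice of genes rested on.

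Other genes of the same tasks are given from fixed lists, again with no test. Of 6 other cytosolic synthetases on the array, 4 were above 0 on every array, with mean log2 ratios of 0.64 for WARS1, 0.46 for GARS1 and 0.28 for TARS1, which charge tryptophan, glycine and threonine. Of 4 mitochondrial synthetases none had 1 sign on all arrays. Of 8 other transporters 4 were above 0 throughout, with SLC7A5, the light chain that pairs with SLC3A2, at 0.64, SLC38A2, a glutamine carrier, at 0.37 and SLC25A13, a mitochondrial aspartate carrier, at 0.26. Among 13 other enzymes 1 was above and 3 below 0 throughout. SHMT2, which makes glycine in mitochondria, averaged 0.57, MAT2A, which makes S-adenosylmethionine, -0.55, and MTHFD1, the cytosolic counterpart of MTHFD2, -0.29.

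ATF4 itself had log2 ratios of 0.80 and 0.83 at 3 h and 1.22 and 0.73 at 6 h. Of the 11 integrated stress response genes on the array, ATF4 included, 5 were above 0 throughout and 3 below, led by DDIT3 at 1.11, ATF5 at 0.91 and ATF4 at 0.90. Of 11 genes of the unfolded protein response 2 were above 0 (XBP1, 0.66, and EDEM1, 0.38) and 1 below (MANF, -0.25). Of 5 B cell markers, CD79B at 0.68 and PAX5 at 0.10 were above 0 throughout and MS4A1 at -0.25 below. Of 7 T and NK cell markers CD2 was below 0, at -0.17, and none of 3 myeloid markers had 1 sign throughout. The part of these shifts in the ratios of the amino acid supply genes was not tested.

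**Figure D2:**
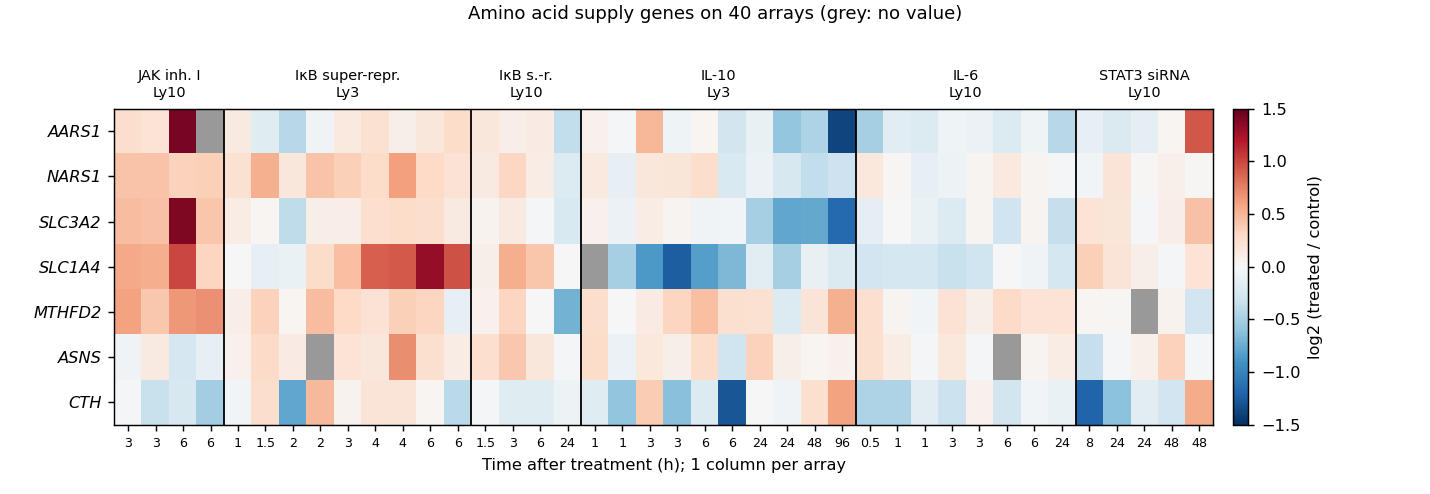
Log2 ratio of treated over control (colour) for the 7 genes (vertical axis) on each of the 40 arrays, grouped by experiment and ordered by time within it. Replicate 1 at 6 h of the inhibitor is the reddest array for SLC3A2 and AARS1, while late IL-10 arrays are blue for the same genes and early IL-10 arrays are blue for SLC1A4.

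IL-10 in OCI-Ly3 asks what a cytokine that activates STAT3 does over hours and days, and here the amino acid supply genes split by time. SLC1A4 was lower in the first hours, while SLC3A2, AARS1 and NARS1 were lower from 24 h on. Each mean below is over the time points of a window, tested against 0 with limma in 1 fit over all arrays, with the Benjamini-Hochberg adjustment over all genes tested and a threshold of 0.05. Whether control RNA was shared between arrays is not stated, so how far the spread among control RNAs enters such a test is unknown.

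AARS1 had log2 ratios of 0.06 and -0.02 at 1 h, 0.50 and -0.06 at 3 h and 0.03 and -0.27 at 6 h, then -0.11 and -0.58 at 24 h, -0.46 at 48 h and -1.38 at 96 h. Its early arrays lay around 0 and its 4 late arrays all below, with the 96 h array far below the rest. NARS1 had 0.15 and -0.12 at 1 h, 0.17 and 0.19 at 3 h and 0.27 and -0.23 at 6 h, then -0.09 and -0.25 at 24 h, -0.37 at 48 h and -0.32 at 96 h. The late NARS1 values were all below 0 and overlapped the early ones.

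SLC3A2 had 0.07 and -0.09 at 1 h, 0.11 and 0.04 at 3 h and -0.05 and -0.04 at 6 h, then -0.50 and -0.77 at 24 h, -0.77 at 48 h and -1.16 at 96 h. Early and late arrays of SLC3A2 did not overlap. SLC1A4 had -0.50 at 1 h (1 array), -0.86 and -1.23 at 3 h and -0.83 and -0.67 at 6 h, then -0.17 and -0.50 at 24 h, -0.11 at 48 h and -0.22 at 96 h. All 9 arrays of SLC1A4 were below 0, and the early ones were the lower, with the highest early value (-0.497) just above the lowest late one (-0.503).

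MTHFD2 had 0.26 and -0.00 at 1 h, 0.12 and 0.32 at 3 h and 0.45 and 0.24 at 6 h, then 0.22 and -0.20 at 24 h, 0.20 at 48 h and 0.54 at 96 h. It was above 0 on 8 of 10 arrays, with early and late values mixed. ASNS had 0.28 and -0.09 at 1 h, 0.16 and 0.08 at 3 h, 0.28 and -0.30 at 6 h, 0.34 and 0.09 at 24 h, 0.03 at 48 h and 0.07 at 96 h, on both sides of 0. CTH had -0.18 and -0.59 at 1 h, 0.38 and -0.63 at 3 h and -0.21 and -1.28 at 6 h, then 0.00 and -0.05 at 24 h, 0.24 at 48 h and 0.60 at 96 h. Its early replicates lay far apart, and replicate 2 was the lower at each early time.

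**Figure D3:**
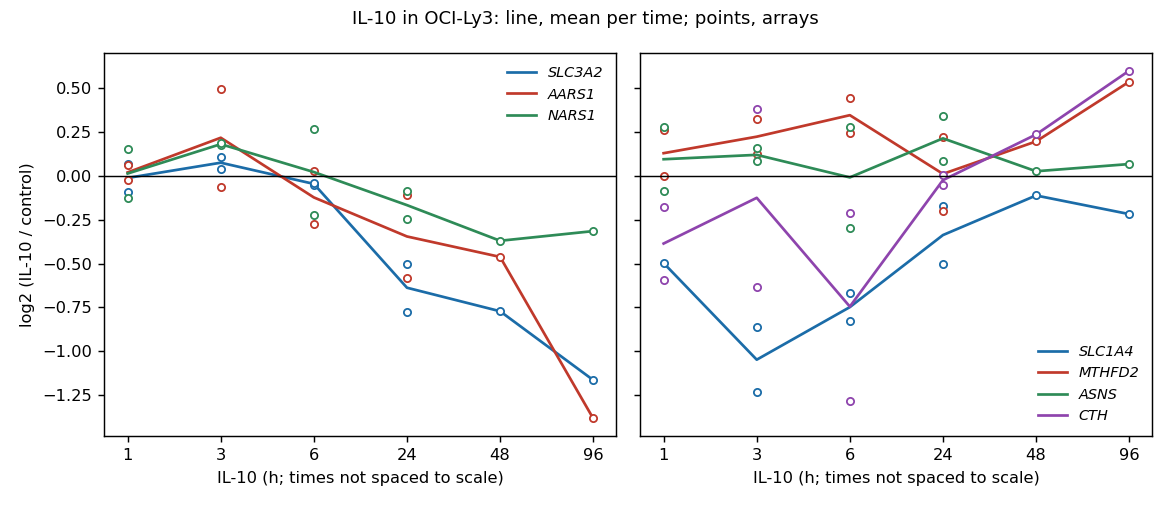
Log2 ratio of IL-10 over control in OCI-Ly3 (vertical axis) against time in h (horizontal axis, not to scale) for the 7 genes in 2 panels, with points for arrays and a line through the mean at each time. SLC1A4 lies lowest at 3 h, at -0.86 and -1.23, and SLC3A2 and AARS1 lie lowest at 96 h, at -1.16 and -1.38.

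Over 1 to 6 h, SLC1A4 fell by 0.76 ± 0.09 (SE) on the log2 scale (adjusted p = 1.89e-05, limma, lower on 5 of 5 arrays). It was the 1 gene of the 7 that was called in this window, where 14.5% of 4428 genes were called, 6.12% higher and 8.4% lower. MTHFD2 was at 0.23 (adjusted p = 0.0531) and CTH at -0.42 (adjusted p = 0.0914). With the replicate number as a block, MTHFD2 had an adjusted p of 0.0458 and CTH of 0.0286. Whether replicate numbers pair the samples is not established. The range over all alternatives was 0.0458 to 0.212 for MTHFD2 and 0.0286 to 0.393 for CTH. The block called 975 genes against 643 without it. SLC1A4 stayed called in each of the 12 alternatives that could be run for it, at -0.83 to -0.66.

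Over 24 to 96 h, SLC3A2 fell by 0.86 ± 0.12 (SE; adjusted p = 2.7e-05), AARS1 by 0.73 ± 0.12 (adjusted p = 0.000237) and NARS1 by 0.28 ± 0.08 (adjusted p = 0.0168) on the log2 scale, each lower on 4 of 4 arrays. Of all 4442 genes, 27.9% were called in this window, 14.1% higher and 13.7% lower. The median of the 7 genes was -0.22, against -0.02 for all genes tested. SLC1A4 was at -0.22 (adjusted p = 0.129), MTHFD2 at 0.25 (adjusted p = 0.0748), CTH at 0.27 (adjusted p = 0.364) and ASNS at 0.10. Both SLC3A2 probes were lower, at -0.90 and -0.81.

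The late calls rest on few arrays, since 48 h and 96 h had 1 array each. Without the 96 h array, AARS1 was at -0.40 (adjusted p = 0.0686) and NARS1 at -0.27 (adjusted p = 0.0711), and neither was called. NARS1 was also not called without replicate 2 at 24 h (adjusted p = 0.0563) or without the 48 h array (adjusted p = 0.0873). SLC3A2 stayed called under every alternative run, at -0.90 to -0.62, with an adjusted p of at most 0.0161. The range of adjusted p over all alternatives was 7.95e-05 to 0.252 for AARS1 and 0.00883 to 0.457 for NARS1.

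Late against early arrays were then compared within the fit. Of 4354 genes 13.7% were called, 8.04% with a higher and 5.63% with a lower ratio late. The 48 and 96 h arrays formed a run of neighbouring array identifiers with no early array, so there time and run cannot be told apart. The 24 h arrays shared their runs with early arrays. SLC3A2 averaged -0.86 at 24 to 96 h and 0.01 at 1 to 6 h, a difference of -0.86 (95% interval -1.19 to -0.54, adjusted p = 0.000711). AARS1 averaged -0.73 late and 0.04 early, a difference of -0.77 (95% interval -1.10 to -0.43, adjusted p = 0.00274). NARS1 averaged -0.28 late and 0.07 early, a difference of -0.36 (95% interval -0.58 to -0.13, adjusted p = 0.0317). SLC1A4 ran the other way, with -0.22 late and -0.76 early, a difference of 0.54 (95% interval 0.24 to 0.84, adjusted p = 0.0154).

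The remaining genes gave differences that were not called, with 0.69 for CTH (95% interval 0.13 to 1.24, adjusted p = 0.0983), 0.02 for MTHFD2 and 0.03 for ASNS. The replicate block gave CTH an adjusted p of 0.0308, within a range of 0.0308 to 0.370 over its alternatives. The AARS1 difference without the 96 h array was -0.44 (adjusted p = 0.161). The SLC1A4 difference without the 48 h array was 0.49 (adjusted p = 0.0518). The NARS1 difference lost its call in 7 of the 10 fits that left out 1 array. The SLC3A2 difference kept its call in every alternative run.

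Taken over 1 to 96 h, SLC1A4 fell by 0.49 ± 0.07 (adjusted p = 3.62e-05), SLC3A2 by 0.43 ± 0.08 (adjusted p = 0.000308) and AARS1 by 0.35 ± 0.08 (adjusted p = 0.0026) on the log2 scale, and MTHFD2 rose by 0.24 ± 0.06 (adjusted p = 0.00705). In this window 35.3% of 4383 genes were called, 16.1% higher and 19.2% lower. NARS1 was at -0.11 (adjusted p = 0.131), CTH at -0.07 (adjusted p = 0.691) and ASNS at 0.09 (adjusted p = 0.358). Without the 96 h array AARS1 was at -0.14 (adjusted p = 0.227) and MTHFD2 at 0.18 (adjusted p = 0.0509).

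The counts for other genes of the pathway stand beside all-gene shares of 27.9% called late (14.1% higher, 13.7% lower) and 14.5% early (6.12% higher, 8.4% lower). For late minus early the share was 13.7% (8.04% with a higher and 5.63% with a lower ratio late). That difference was called, with a lower ratio late, for 2 of 6 other cytosolic synthetases, 2 of 8 transporters and 3 of 13 enzymes, and with a higher one for 1 of 4 mitochondrial synthetases (FARS2, 0.70). Leaving out 1 array moved these counts to 0 to 3, 1 to 2, 0 to 4 and 0 to 1. Over 24 to 96 h all 6 other cytosolic synthetases on the array were called lower, with a median of -0.46 and with LARS1 at -0.66 (leucine; adjusted p = 0.00885) and IARS1 at -0.51 (isoleucine; adjusted p = 6.85e-05). Over 1 to 6 h none of the 6 was called. The late count was 2 without the 96 h array, 0 without the 48 h and 96 h arrays and 3 with arrays scaled to equal spread. Of 4 mitochondrial synthetases FARS2 was called higher late, at 0.93 (adjusted p = 3.01e-05).

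Among 8 other transporters SLC7A5 (-0.90, adjusted p = 0.000139) and the glutamate carrier SLC1A1 (-0.29, adjusted p = 0.00543) were called lower late, and SLC38A2 early (-0.28, adjusted p = 0.0328). SLC38A2 lost its call in 5 of 6 fits that left out 1 array, and SLC1A1 in 1 of 4. Of 13 other enzymes 5 were called lower and 1 higher late, and none early. GOT1, which makes aspartate, was at -0.60 (adjusted p = 0.00147), SHMT2 at -0.52 (adjusted p = 0.00543) and BCAT2, which breaks down branched-chain amino acids, at 0.32 (adjusted p = 0.0206). Without the 96 h array 2 of the 13 were called.

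ATF4 fell by 0.81 on the log2 scale at 24 to 96 h (adjusted p = 0.00028) and was at -0.12 at 1 to 6 h, and the difference of -0.69 was called (adjusted p = 0.0151). Of the 11 integrated stress response genes 4 were called lower and 1 higher late, NUPR1 at 0.49 (adjusted p = 0.00226). Early, ATF3 at 0.90 (adjusted p = 1.8e-06) and CEBPB at 0.19 (adjusted p = 0.0359) were called higher, and CEBPB lost its call in 5 of 6 fits that left out 1 array. Of 11 unfolded protein response genes the eIF2 kinase inhibitor DNAJC3 (-0.48, adjusted p = 0.000601) and XBP1 (-0.44, adjusted p = 0.00226) were called lower late, and SEL1L (-0.71, adjusted p = 0.0425) and DNAJC3 (-0.29, adjusted p = 0.01) early. Leaving out 1 array ended the early call of SEL1L in 4 of 6 fits (-1.01 to -0.42) and of DNAJC3 in 2 of 6, and the early count ran from 0 to 3.

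Some cell type markers were called with IL-10, 4 of 15 late, where 27.9% of all genes were. Late, CD79A was called lower at -0.59 and CD22 higher at 0.30 of 5 B cell markers, CD3E higher at 0.32 of 7 T and NK cell markers, and CD14 higher at 0.46 of 3 myeloid markers. Early, MS4A1 was called lower at -0.38 of the B cell markers, and CD14 higher at 0.74 and FCGR3A lower at -0.38 of the myeloid ones. Their part in the results on the amino acid supply genes was not tested.

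The IkB super-repressor in OCI-Ly3 asks what a block of NF-kB does within hours, and SLC1A4 rose most of the 7 genes, with NARS1 and MTHFD2 also called higher. SLC1A4 had log2 ratios of 0.01 at 1 h, -0.12 at 1.5 h, -0.10 and 0.28 at 2 h, 0.45 at 3 h, 0.90 and 0.92 at 4 h and 1.31 and 0.95 at 6 h. Arrays up to 2 h lay near 0, and those at 4 and 6 h all lay above every earlier one. NARS1 had 0.23, 0.54, 0.17 and 0.43, 0.35, 0.28 and 0.61, and 0.30 and 0.22 at 1, 1.5, 2, 3, 4 and 6 h. It was above 0 on all 9 arrays, with no order in time.

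AARS1 had 0.13 at 1 h, -0.18 at 1.5 h, -0.41 and -0.05 at 2 h, 0.14 at 3 h, 0.23 and 0.08 at 4 h and 0.17 and 0.27 at 6 h. SLC3A2 had 0.11 at 1 h, 0.03 at 1.5 h, -0.38 and 0.08 at 2 h, 0.10 at 3 h, 0.26 and 0.27 at 4 h and 0.27 and 0.13 at 6 h. For both, replicate 1 at 2 h was the lowest array and those from 3 h on were above 0.

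MTHFD2 had 0.10 at 1 h, 0.35 at 1.5 h, 0.03 and 0.47 at 2 h, 0.30 at 3 h, 0.21 and 0.36 at 4 h and 0.33 and -0.12 at 6 h. ASNS was above 0 on all 8 arrays that measured it, between 0.06 and 0.69. CTH lay between -0.78 and 0.48, and both of these extremes were the replicates at 2 h. The 2 replicates at 2 h had a correlation of -0.02 over all probes.

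Over 2 to 6 h, SLC1A4 rose by 0.64 ± 0.08 (SE; adjusted p = 6.71e-05, higher on 6 of 7 arrays), NARS1 by 0.34 ± 0.06 (adjusted p = 0.0024, 7 of 7) and MTHFD2 by 0.23 ± 0.08 (adjusted p = 0.0458, 6 of 7). Of 4390 genes 14% were called, 9.16% higher and 4.87% lower. ASNS was at 0.23 ± 0.09 (adjusted p = 0.0901, above 0 on 6 of 6 arrays), SLC3A2 at 0.10, AARS1 at 0.07 and CTH at -0.02, and none of these was called. The median of the 7 genes was 0.23, against -0.03 for all genes tested.

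SLC1A4 and NARS1 stayed called in every alternative run, at 0.60 to 0.83 and 0.30 to 0.38. MTHFD2 kept its call in 6 of 16 alternatives, with an adjusted p of 0.0164 to 0.230, and lost it in 5 of the 7 fits that left out 1 array.

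**Figure D4:**
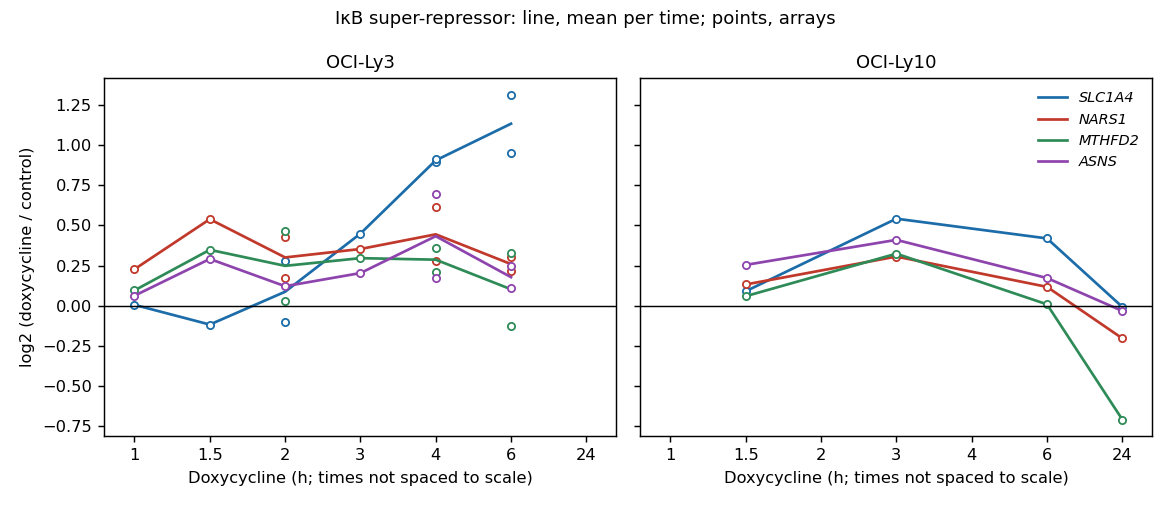
Log2 ratio of SLC1A4, NARS1, MTHFD2 and ASNS for doxycycline over control in super-repressor cells of OCI-Ly3 and OCI-Ly10 (vertical axes) against time in h, with points for arrays and lines through the mean at each time. SLC1A4 reaches 1.31 and 0.95 at 6 h in OCI-Ly3, and in OCI-Ly10 it lies at 0.54 at 3 h and 0.42 at 6 h and near 0 at 24 h.

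The counts for other genes of the pathway with the super-repressor in OCI-Ly3 stand beside the 14% of all genes called (9.16% higher, 4.87% lower). None of 6 other cytosolic synthetases, 4 mitochondrial ones or 12 other enzymes tested was called, and of 8 other transporters SLC1A1 was called lower (-0.21, adjusted p = 0.0148). ATF4 was at 0.25 (adjusted p = 0.123), and CEBPB was the 1 integrated stress response gene of 11 called (0.17, adjusted p = 0.0458). CEBPB lost this call in 6 of 7 fits that left out 1 array, and the count ran from 0 to 4, while SLC1A1 lost its call in 2 of 7. XBP1 at 0.42 and MANF at 0.34 (adjusted p = 0.00787) were called higher of 11 unfolded protein response genes. Of the 5 B cell markers PAX5 was called lower (-0.22, adjusted p = 0.0274), and its part was not tested.

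In OCI-Ly10 the super-repressor was measured once per time. At 1.5, 3, 6 and 24 h, SLC1A4 was at 0.09, 0.54, 0.42 and -0.01. NARS1 was at 0.13, 0.31, 0.12 and -0.20, and MTHFD2 at 0.06, 0.32, 0.01 and -0.71. ASNS was at 0.25, 0.41, 0.17 and -0.03. Each of these genes was highest at 3 h and lowest at 24 h.

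AARS1 was at 0.17, 0.10, 0.13 and -0.37 in OCI-Ly10 and SLC3A2 at 0.05, 0.13, -0.03 and -0.22, again lowest at 24 h. CTH was at -0.02, -0.19, -0.18 and -0.07. Over 3 to 24 h none of the 7 genes was called by limma, as 0.532% of 4515 genes were (0.221% higher, 0.31% lower, and 293 genes at an unadjusted p under 0.05). SLC1A4 averaged 0.32 ± 0.12 (SE; adjusted p = 0.507), and with arrays scaled to equal spread it was called at 0.49 (adjusted p = 0.0137, within a range of 0.0137 to 0.999 over the alternatives). No gene of the 6 pathway lists was called.

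The lines were compared at the shared times of 1.5, 3 and 6 h. SLC1A4 averaged 0.49 in OCI-Ly3 and 0.35 in OCI-Ly10, a difference of 0.14 (95% interval -0.19 to 0.47). NARS1 averaged 0.38 in OCI-Ly3 and 0.19 in OCI-Ly10, a difference of 0.20 (95% interval -0.06 to 0.46). MTHFD2 differed by 0.12 (95% interval -0.19 to 0.43) and ASNS by -0.05 (95% interval -0.40 to 0.29). By limma 0 of 4384 genes (0%) differed, with 108 at an unadjusted p under 0.05, and the adjusted p was 0.994 for each of the 7. The intervals leave room for a difference in either direction.

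IL-6 in OCI-Ly10, another activator of STAT3, left all 7 genes without a call. Its arrays had 8862 to 12731 probes with a value, against 13688 to 14251 on the IL-10 arrays. STAT3 RNA was at 0.08 over 1 to 24 h of IL-6 and at 1.37 over 1 to 96 h of IL-10. How far either cytokine activated the STAT3 protein was not measured here. SLC1A4 had log2 ratios of -0.29 at 0.5 h, -0.27 and -0.27 at 1 h, -0.34 and -0.29 at 3 h, -0.01 and -0.06 at 6 h and -0.27 at 24 h. AARS1 had -0.50 at 0.5 h, -0.17 and -0.20 at 1 h, -0.06 and -0.09 at 3 h, -0.20 and -0.07 at 6 h and -0.42 at 24 h. Both were below 0 on all 8 arrays. NARS1 lay between -0.12 and 0.16, SLC3A2 between -0.35 and 0.05, MTHFD2 between -0.04 and 0.29, ASNS between -0.02 and 0.24 and CTH between -0.47 and 0.06.

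Over 1 to 24 h, SLC1A4 was at -0.22 ± 0.08 (SE; adjusted p = 0.12), AARS1 at -0.20 ± 0.09 (adjusted p = 0.222) and MTHFD2 at 0.15 (adjusted p = 0.253). By limma 4.54% of 3301 genes were called, 3.48% higher and 1.06% lower, and 704 had an unadjusted p under 0.05. The replicate block called 314 genes against 150 and none of the 7. With arrays scaled to equal spread SLC1A4 was called at -0.25 (adjusted p = 0.034, within a range of 0.034 to 0.422 over the alternatives). Of the pathway lists SLC38A2 was called lower (-0.32, adjusted p = 0.0239), a call lost in 3 of 7 fits that left out 1 array.

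IL-10 in OCI-Ly3 and IL-6 in OCI-Ly10 were set side by side at 1, 3, 6 and 24 h, where the cytokine and the line differ together and cannot be told apart. The number of probes with a value differed as well, and STAT3 RNA was higher with IL-10 by 1.37 (adjusted p = 4.17e-05, limma). SLC1A4 averaged -0.66 with IL-10 and -0.22 with IL-6, a difference of -0.44 (95% interval -0.67 to -0.20, adjusted p = 0.0205). It was the 1 gene of the 7 called, where 8.56% of 3259 genes were (4.08% higher and 4.48% lower with IL-10), and the replicate block called 451 genes against 279. The call was lost with the array run as a random block (-0.42, adjusted p = 0.182) and with arrays scaled to equal spread (-0.32, adjusted p = 0.0679), within a range of 0.0148 to 0.182. For AARS1 the difference was 0.15 (95% interval -0.12 to 0.41), for SLC3A2 -0.00 (95% interval -0.26 to 0.25) and for NARS1 0.01 (95% interval -0.17 to 0.19).

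With STAT3 siRNA in OCI-Ly10 no gene of the 7 was called either. NARS1 had log2 ratios of -0.04 at 8 h, 0.20 and 0.02 at 24 h and 0.08 and 0.02 at 48 h. SLC3A2 had 0.20 at 8 h, 0.18 and -0.03 at 24 h and 0.10 and 0.44 at 48 h, and SLC1A4 had 0.36 at 8 h, 0.19 and 0.08 at 24 h and -0.01 and 0.21 at 48 h. These arrays lay around or a little above 0.

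AARS1 had -0.12 at 8 h, -0.21 and -0.15 at 24 h and 0.03 and 0.93 at 48 h. MTHFD2 lay between -0.28 and 0.05 and ASNS between -0.35 and 0.35. CTH had -1.20 at 8 h, -0.61 and -0.16 at 24 h and -0.29 and 0.56 at 48 h. The single array at 8 h held the lowest CTH value, and replicate 2 at 48 h stood apart for AARS1 and CTH.

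Over 24 and 48 h the means were 0.17 for SLC3A2, 0.15 for AARS1, 0.12 for SLC1A4, 0.09 for ASNS, 0.08 for NARS1, -0.05 for MTHFD2 and -0.13 for CTH. By limma 3.31% of 4346 genes were called, 1.27% higher and 2.05% lower, and 903 had an unadjusted p under 0.05. Of the pathway lists SLC38A9, a lysosomal arginine sensor, was called higher (0.56, adjusted p = 0.0398) and DNAJC3 lower (-0.32, adjusted p = 0.0459). The count of each of these lists was 0 in 3 of 4 fits that left out 1 array.

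Across the 26 groups of experiment and time, the genes ran together in part. SLC3A2 and AARS1 had a Pearson correlation of 0.90 and NARS1 and SLC3A2 of 0.73, while ASNS and CTH had 0.55 and SLC3A2 and CTH -0.43. Without the inhibitor, whose values picked the genes, the same pairs had 0.88, 0.71, 0.55 and -0.44 over 24 groups. MTHFD2 had 0.41 with NARS1 and 0.08 to 0.15 with each other gene of the 7, and -0.22 to 0.32 with all of them without the inhibitor. ASNS had -0.10 to 0.39 with the genes other than CTH, and 0.14 to 0.57 without the inhibitor. These are descriptions over groups of 1 or 2 arrays, which may share control RNA. Among the 3052 genes outside the 7 with a value in all groups, the mean of the 7 was most like XBP1 (0.92), ATF4 (0.87), SHMT2 (0.83), CENPF (0.83) and TARS1 (0.82). Over the 24 groups without the inhibitor, among 3058 such genes, it was most like XBP1 (0.90), CENPF (0.87), CYCS (0.87), ILF2 (0.86) and MAPRE2 (0.86).

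Of these 3052 genes outside the 7, the closest by Pearson correlation was SHMT2 for AARS1 (0.86), EIF2S2 for NARS1 (0.93), SLC7A5 for SLC3A2 (0.95) and CSNK2A2 for SLC1A4 (0.86). For the enzymes it was DDIT3 for MTHFD2 (0.63), BZW1 for ASNS (0.86) and HADHB for CTH (0.90). Among the 7 themselves, AARS1 was closer to SLC3A2 (0.90). The Spearman rank correlations of these pairs with genes outside the 7, in the same order, were 0.72, 0.94, 0.84, 0.84, 0.56, 0.76 and 0.73. Over the 24 groups without the inhibitor, whose values picked the genes, 3058 genes outside the 7 were compared. There the closest by Pearson correlation was MFNG for AARS1 (0.90) and LSM6 for MTHFD2 (0.78), and the other 5 genes had the same closest gene. SLC3A2 and SLC7A5 encode the heavy and light chain of one exchanger of large neutral amino acids. With the inhibitor SLC7A5 had log2 ratios of 0.33 and 0.50 at 3 h and 1.30 and 0.46 at 6 h, with the same high array as SLC3A2. With IL-10 SLC7A5 had 0.20 and 0.17 at 1 h, 0.43 and -0.25 at 3 h and -0.13 and -0.52 at 6 h, then -0.55 and -0.89 at 24 h, -0.78 at 48 h and -1.21 at 96 h. As for SLC3A2, the late arrays lay below all early ones. Without the 2 inhibitor groups the Pearson correlation of SLC3A2 with SLC7A5 was 0.93 and the Spearman correlation 0.80.

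**Figure D5:**
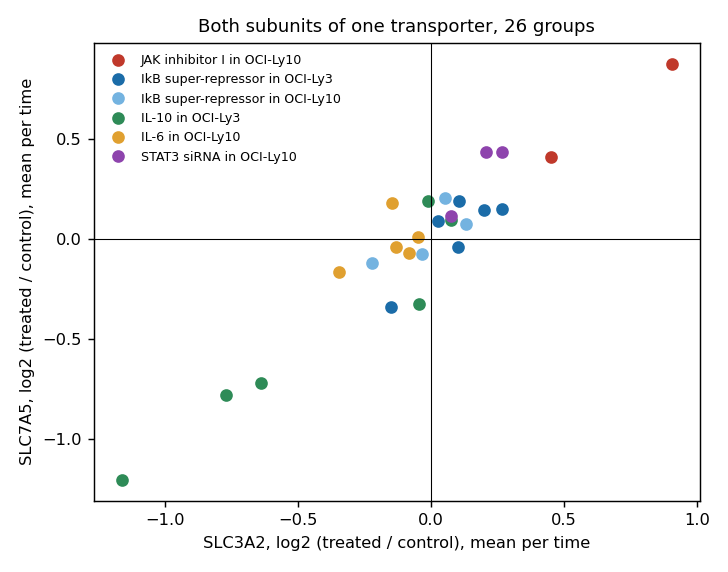
Mean log2 ratio of SLC7A5 (vertical axis) against that of SLC3A2 (horizontal axis), with 1 point for each of the 26 groups of experiment and time, coloured by experiment. The points run along 1 rising band, with the late IL-10 groups at its low end and the 6 h inhibitor group at its high end.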

How the data were processed

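The deposited values were log ratios, read as log2, of Cy5 (treated) over Cy3 (control), per the labels; the base is not stated, and the range of -7.868 to 5.81 is too wide for base 10, while the natural logarithm could not be told apart from log2. The sources used here do not give the background correction or the normalization, but the authors had centred the arrays (medians -0.031 to 0.011). Channel intensities were not used, so signal over background is unknown, and with no dye swap a gene's dye bias stays in its ratio. RNA was prepared with Trizol and primed with oligo-dT.

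Arrays were median-centred and the 10169 probes with a single symbol averaged per gene; 5077 other probes were left out. SLC3A2 and CTH had 2 probes each. One mean per experiment and time was fitted over the 40 arrays with limma 3.58.1 in R 4.3.3. Windows were tested against 0 where 75% of arrays and every time had a value. The script was tested on simulated data. The replicate number was tried as a block. Differences between replicates correlated across times at 0.376 to 0.577 for IL-10 and 0.193 to 0.269 for IL-6. The siRNA (0.299) and the inhibitor (0.203) gave values like those of IL-6. Array identifiers fell into 12 runs, a possible batch the labels do not describe (correlation within a run 0.269). Replicates 1 and 2 of a time always lay in different runs, so pairing and run cannot be told apart. Alternatives were scaling, probe medians, filters, blocks, each experiment alone and leaving out arrays. Leaving out both 2 h super-repressor arrays, or the 48 and 96 h IL-10 arrays, was chosen after seeing the data.

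The genes and lists were chosen with earlier results of these data known. The text names all 7 genes and up to 2 called genes of each list per experiment (3 for the inhibitor) with the largest means. It also names the 5 genes outside the 7 most like their mean. Chosen after their values were seen were ATF4 under IL-10 and the super-repressor, and the gene outside the 7 most like each of them. BCAT2 is named beyond this rule, as the 1 other enzyme called higher late with IL-10, and its own value was not followed with arrays left out.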

Additional observations from a re-analysis of the deposited data

Results flagged for a closer look

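In OCI-Ly3 with IL-10, the response at 24 to 96 h differed from that at 1 to 6 h for 4 of the 7 genes in limma's test of the difference itself. The differences, late minus early, were -0.86 for SLC3A2, -0.77 for AARS1, -0.36 for NARS1 and 0.54 for SLC1A4 on the log2 scale. The 48 and 96 h arrays formed a run of their own, so for them time and run cannot be told apart. SLC1A4 was below its control in both windows, at -0.76 early and -0.22 late, so its positive difference is a smaller fall late. Without the 96 h array AARS1 was not called (-0.44, adjusted p = 0.161), and without the 48 h array SLC1A4 was not (0.49, adjusted p = 0.0518). SLC1A4 kept its call in 14 of 16 alternatives in all, with an adjusted p of up to 0.0976. NARS1 lost its call in 7 of 10 fits that left out 1 array and kept it in 9 of 18 alternatives in all, with an adjusted p of up to 0.203. No group of experiment and time had more than 2 arrays, so no array could be tested as standing apart within its group.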

How the results depend on the processing

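Of 1060 values of the 7 genes under the alternatives, 953 kept direction and side of the threshold, 33 lost a call, 13 gained one and 61 changed sign, all of the last uncalled. Of 693 values of called genes of the other lists, 143 lost the call and none changed sign. The cause of these changes was not tested. Groups of 1 or 2 arrays limit the precision, and the lone array of a time is assumed to vary like the other groups. SLC1A4 at 1 to 6 h of IL-10 and at 2 to 6 h of the super-repressor in OCI-Ly3, SLC3A2 at 24 to 96 h of IL-10 and NARS1 with the super-repressor in OCI-Ly3 were called under all alternatives run. MTHFD2 with that super-repressor lost its call as deposited (adjusted p = 0.0519), with scaling (0.0665), with the run block (0.23) and with the experiment alone (0.101).

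Counts of called genes changed as follows. For IL-10 at 1 to 6 h (643) the replicate block gave 975, the run block 262 and the experiment alone 220; at 24 to 96 h (1238) scaling to equal spread gave 790, the experiment alone 799 and leaving out 48 and 96 h 431; at 1 to 96 h (1548) the experiment alone gave 1031. For late minus early (595) scaling gave 296 and the experiment alone 229. For IL-6 (150) scaling gave 455, no filter 325, the replicate block 314, the run block 32 and the experiment alone 71. In OCI-Ly3 with the super-repressor (616) the replicate block gave 1105, the run block 103 and the experiment alone 368; in OCI-Ly10 (24) scaling gave 238, the replicate block 39 and the run block 5, and the experiment alone could not be fitted. For the siRNA (144) scaling gave 83, the replicate block 417, the run block 48 and the experiment alone 0. For IL-10 minus IL-6 (279) the replicate block gave 451, the run block 84 and the experiments alone 172. For the lines (0) scaling gave 2. The check of pairing gave values of either sign with the super-repressor in OCI-Ly3 (-0.319 to 0.32). With siRNA (0.299) and the inhibitor (0.203) it gave positive values, as with IL-10 and IL-6. In no experiment can it separate pairing from run. With the super-repressor in OCI-Ly3 the block called ASNS (0.26, adjusted p = 0.0348). The block changed no other call of the 7 genes beyond those named for IL-10.

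Of the 7 genes, IL-10 at 1 to 6 h had 1 called, 0 with a value required on every array (SLC1A4 has a blank) and 3 with the replicate block. At 24 to 96 h 3 were called and 1 without 48 and 96 h, and late minus early had 4 and 2 with the experiment alone. Scaling gave 1 with IL-6 and 1 with the super-repressor in OCI-Ly10 (0 each otherwise). IL-10 minus IL-6 had 1, and 0 with scaling, with a value on every array or with the run block.

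Leaving out 1 array gave 1161 to 1569 genes for IL-10 at 1 to 96 h, 346 to 614 at 1 to 6 h, 698 to 1149 at 24 to 96 h and 307 to 601 late minus early. It gave 93 to 147 for IL-6, 269 to 957 and 1 to 17 for the super-repressor in OCI-Ly3 and OCI-Ly10, 21 to 106 for the siRNA and 155 to 323 for IL-10 minus IL-6. Of the 7 genes it left 2 to 5, 0 to 2, 1 to 3 and 2 to 4 called in those IL-10 comparisons, 2 to 3 for the super-repressor in OCI-Ly3 and 0 to 1 for IL-10 minus IL-6.

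Signs changed close to 0. As deposited, SLC3A2 at 1 to 6 h of IL-10 was at -0.00475. Without 48 and 96 h, CTH late was at -0.0245, and without both 2 h arrays CTH with the super-repressor was at 0.0195. With scaling, NARS1 with IL-6 was at 0.00388, MTHFD2 late minus early at -0.0248, SLC1A4 between lines at -0.0481, and in IL-10 minus IL-6 SLC3A2 was at 0.0243 and MTHFD2 at -0.00933. Leaving out 1 array gave ranges across 0. They were, with the super-repressor in OCI-Ly10, AARS1 -0.13 to 0.11, MTHFD2 -0.35 to 0.17, NARS1 -0.0435 to 0.21 and SLC3A2 -0.13 to 0.0495. Between lines they were AARS1 -0.15 to 0.0695, ASNS -0.10 to 0.0213, SLC1A4 -0.15 to 0.31 and SLC3A2 -0.0285 to 0.10. At 1 to 6 h of IL-10 they were AARS1 -0.0555 to 0.13, ASNS -0.0283 to 0.17, NARS1 -0.0108 to 0.15 and SLC3A2 -0.0214 to 0.0326. With siRNA they were AARS1 -0.076 to 0.38, ASNS -0.0045 to 0.18 and CTH -0.34 to 0.0846. In IL-10 minus IL-6 they were ASNS -0.0351 to 0.11, MTHFD2 -0.0278 to 0.0983, NARS1 -0.0496 to 0.0741 and SLC3A2 -0.0442 to 0.0932. Late minus early gave ASNS -0.0628 to 0.13 and MTHFD2 -0.13 to 0.0858. CTH ran from -0.18 to 0.14 with the super-repressor in OCI-Ly3 and from -0.21 to 0.015 over 1 to 96 h of IL-10, and NARS1 from -0.0169 to 0.0164 with IL-6.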
